A study of Mus musculus with 8 samples.

Results

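The 37 genes described here encode the aminoacyl-tRNA synthetases of the mouse, 21 enzymes of the cytosol and 16 of the mitochondrion, read in ribosome footprint libraries of dorsal root ganglia (DRG). The list was drawn up with earlier results of these data known, and its rows were then found by gene symbol. Every row of the deposited tables with a listed symbol was taken and rows of 1 symbol were summed. All 37 were found among 48315 symbols. The gene of the mitochondrial leucine enzyme, Lars2, was treated apart from the other mitochondrial genes because its level stands far from theirs. All 37 passed the filter used for the comparison below, a mean of at least 1 CPM (reads per 1000000 assigned reads) over the libraries.

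DRG flank the spinal cord and house sensory neurons together with satellite glia and Schwann cells. The tissue came from mice of a strain labelled SW, genotype WT, given saline as a control, and every library shares these labels; the age of the mice is not given. Libraries labelled female (4) and labelled male (4) are the groups that the labels give, each with replicate numbers 1 to 4. The study made them to see which transcripts ribosomes occupied in this tissue, and no library of another treatment was analysed here.

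An aminoacyl-tRNA synthetase joins an amino acid to the tRNA that carries its anticodon, so each step of protein synthesis depends on one of these enzymes. Cytosolic enzymes serve the ribosomes of the cell body and axon, and a separate set of nuclear-encoded enzymes is imported to serve the small number of proteins made inside mitochondria. Gars and Kars make both forms from 1 gene, through alternative starts or splicing, and are counted with the cytosolic enzymes. Part of the cytosolic enzymes are held together in the multisynthetase complex around the scaffold proteins Aimp1, Aimp2 and Eef1e1. Dominant variants of several cytosolic enzymes cause inherited neuropathy of peripheral axons in humans, and loss of mitochondrial enzymes harms the nervous system.

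Depth ran from 3697690 assigned reads in the library labelled male 1 to 12714551 in the library labelled male 3. Protein-coding genes held 78.3% to 93.8% of the assigned reads. All 10 pan-neuronal markers were measured, and their summed level was 19944 to 24289 CPM in the libraries labelled female and 14288 to 22893 CPM in those labelled male. In 3 libraries, labelled female 1, female 3 and male 1, Y-linked genes and Xist had the levels of the other sex. The libraries labelled female 1 and female 3 were also far closer to each other than any other pair: 1.05% of 12579 coding genes differed between them at p below 0.001, against 9.35% to 31.7% for the other 27 pairs. Counts, medians of gene lists and differences of single genes between the labelled sexes are therefore given with and without these 3 libraries. Nothing in the labels says that libraries came from separate animals, so the p-values measure the spread between these libraries, which may be technical.

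Among the cytosolic enzymes the asparagine, glycine, serine, tryptophan and alanine enzymes had the most reads for their length. Divided by the kilobases of coding sequence, Nars (asparagine) stood at 171 ± 45.0 CPM per kilobase (SD, n = 8 libraries, here and for every mean over all libraries). That is rank 703 of 21654 coding genes, those of the mitochondrial genome not counted. Gars (glycine) followed at 129 ± 21.5, Sars (serine) at 121 ± 24.0, Wars (tryptophan) at 101 ± 15.0 and Aars (alanine) at 86.3 ± 16 CPM per kilobase. Within single libraries Nars was above Gars in 8 of 8, Gars above Sars in 7, Sars above Wars in 6 and Wars above Aars in 8. The lowest cytosolic enzyme was Cars (cysteine) at 11 ± 2.02 CPM per kilobase, below the second threonine enzyme Tarsl2 at 14.5 ± 2.68, and it was the lower of the pair in 8 of 8 libraries.

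**Figure D1:**
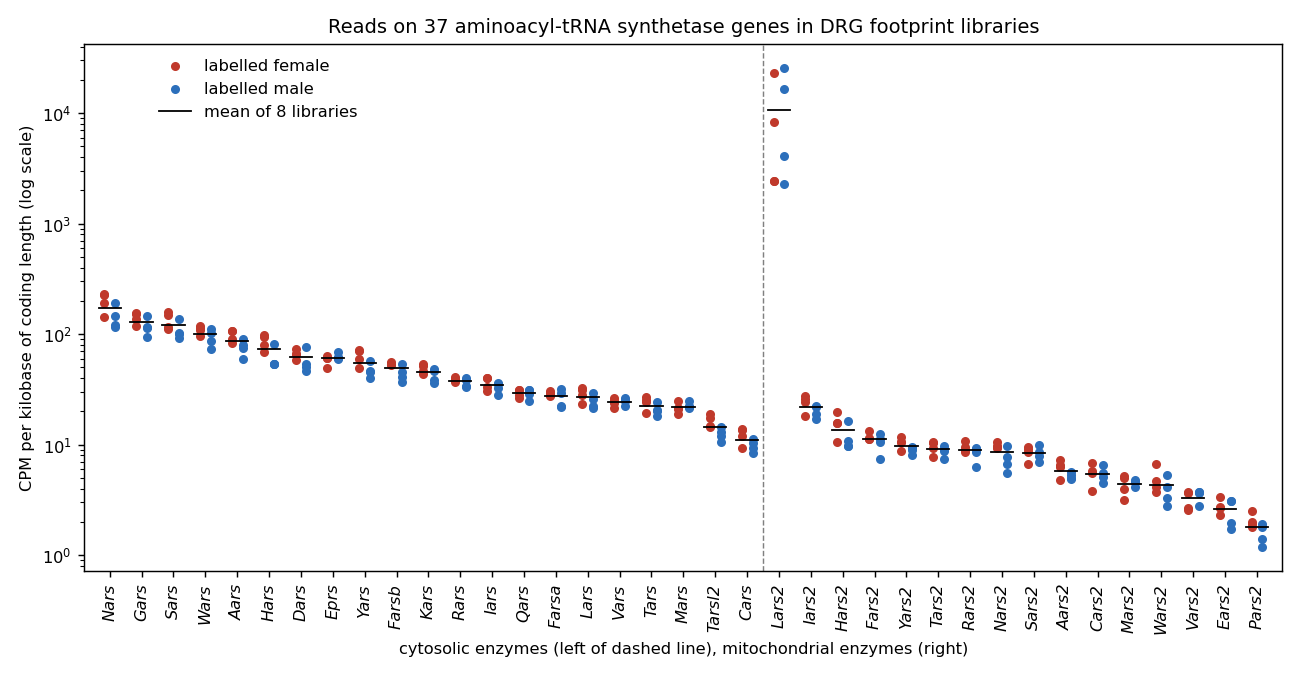
Level of each of the 37 synthetase genes in each library, in CPM per kilobase of coding length on a log axis, with cytosolic enzymes left of the dashed line and mitochondrial enzymes right of it; points are libraries and bars the mean of 8. Nars leads the cytosolic enzymes at 171 CPM per kilobase, Iars2 leads the mitochondrial enzymes other than Lars2 at 21.9, and Lars2 spreads over more than a decade.

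In single libraries, Nars held 379, 239, 383 and 323 CPM in the libraries labelled female 1 to 4, against 195, 202, 323 and 247 CPM in those labelled male 1 to 4. Gars, on chromosome 6 at 55038007 to 55079500, held 333, 258, 338 and 298 CPM in the libraries labelled female and 207, 246, 318 and 255 CPM in those labelled male. For both genes the libraries labelled female 1 and female 3 were the highest, the library labelled male 1 was the lowest, and the groups overlapped. Eprs, a fused enzyme that charges both glutamate and proline tRNAs and lies on chromosome 1 at 185363044 to 185428360, held 274, 224, 290 and 277 CPM in the libraries labelled female and 272, 277, 280 and 310 CPM in those labelled male. Its lowest library was female 2 and its highest male 4, another order than that of Nars and Gars. Because the tissue is a mixture, fewer cells of a type and less RNA per cell cannot be told apart in these levels.

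The 8 enzymes of the multisynthetase complex (Eprs, Iars, Lars, Mars, Qars, Rars, Kars and Dars) lay within 2.79-fold of each other per kilobase, with Dars (aspartate) highest at 61.5 ± 11.2 and Mars (methionine) lowest at 22.0 ± 2.01 CPM per kilobase. Of their scaffold proteins, Aimp1 at 40.1 ± 6.54 and Aimp2 at 50.9 ± 3.43 CPM per kilobase lay within that range, and Eef1e1 at 63.4 ± 8.44 had a mean just above that of Dars. Complex enzymes also varied little between libraries, with a median coefficient of variation of 10.6%, against 18.4% for the 13 other cytosolic enzymes and 16.2% for 5015 coding genes of the same range of levels. Without the libraries whose sex-linked genes go against the label, the medians were 10.7% for the complex enzymes and 12.4% for the other 13, so most of that gap rests on these libraries. The arginine enzyme Rars varied least of all 37 genes, at 7.29%: it held 76.4, 72.3, 80.6 and 77.1 CPM in the libraries labelled female and 65.2, 75.5, 78.8 and 67.7 CPM in those labelled male. The coefficient was under 10% for 4 of the 8 complex enzymes and for 1 of the 13 others, namely Vars (valine); 13.5% of the coding genes of that range were under it. The phenylalanine enzyme is built of an alpha and a beta subunit in equal numbers, and its beta gene Farsb had 1.79 ± 0.19 times the reads of the alpha gene Farsa per kilobase, between 1.43 and 2.02 in single libraries.

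The cytosolic enzymes outside the complex together had 2.17, 2.04, 2.13 and 2.02 times the reads of the complex enzymes in the libraries labelled female 1 to 4, against 1.60, 1.72, 1.98 and 1.68 times in those labelled male 1 to 4. Every library labelled female was above every library labelled male in this ratio, which was looked at after the values of the members had been seen and is given with no test. The same order holds without female 1, female 3 and male 1, by a narrow margin to male 3. The pan-neuronal marker sum, with 10 of 10 markers measured and none at 0 in all libraries, was also highest in female 1 and lowest in male 1. Between these ends it left the order of the ratio, with male 3 at 22893 CPM above female 2 at 20542 and female 4 at 19944 CPM. Skeletal muscle markers were highest in female 1 and female 3, at 9220 and 9146 CPM. They did not follow the order of the ratio, with male 1 next at 7203 CPM and female 2 lowest at 2983 CPM. Fibroblast markers summed to 11403 to 12680 CPM in the libraries labelled female and 12463 to 17119 CPM in those labelled male, lowest in female 2 and highest in male 2. The part of any of these cell types in the ratio was not tested.

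Several cytosolic synthetase genes are known targets of Atf4, the transcription factor that answers amino acid shortage and binds the amino acid response element, TGATGNAA. The element was searched on both strands in RefSeq promoter windows of 300 bases (250 before to 50 after the start, GRCm38.p6), in which 28 of the 37 genes matched by symbol. It was present in 5 of the 14 cytosolic genes with a window and in 0 of the 14 mitochondrial ones, while 4.51% of 27025 genes in the table had it. Cars, Hars, Lars, Nars, Rars, Vars, Wars, Hars2 and Pars2 were not matched. For each of the 5 genes 1 match is shown in a 30-base window, read 5′ to 3′ along the strand of the gene with the element in capitals, because the element sets these genes apart by sequence:

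Aars chr8:111033840-111033869 (+): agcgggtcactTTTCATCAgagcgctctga

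Gars chr6:55037960-55037989 (+): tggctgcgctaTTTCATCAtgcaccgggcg

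Iars chr13:49682126-49682155 (+): cactgtcagtaTTGCATCAcctccagacgc

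Tars chr15:11399655-11399684 (-): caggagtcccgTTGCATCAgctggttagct

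Yars chr4:129189895-129189924 (+): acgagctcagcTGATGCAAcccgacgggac

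In Aars, Gars, Iars and Tars the element reads on the strand opposite to the gene, and in Yars it reads along the gene. The matches shown begin 9 bases after the start in Aars, 7 after in Iars and 3 after in Yars. They begin 30 bases before the start in Gars and 15 before in Tars. Aars had 2 matches, and the one not shown begins 112 bases before the start, on the same strand as the other. These 5 genes ranged in level from 22.4 ± 3.26 CPM per kilobase for Tars (threonine) to 129 ± 21.5 for Gars, so the matches span much of the cytosolic range. A match describes these letters and does not show that a factor was bound.

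The mitochondrial enzymes other than Lars2 were far lower as a group. Their 15 genes summed to 268, 208, 265 and 256 CPM in the libraries labelled female 1 to 4, against 190, 215, 245 and 215 CPM in those labelled male 1 to 4. The 21 cytosolic genes summed to 3034, 2374, 3033 and 2666 CPM in the libraries labelled female, against 2051, 2336, 2781 and 2327 CPM in those labelled male. Both sums were lowest in the library labelled male 1, which had the fewest reads in all, and highest in female 1. Their ratio hardly moved: divided by coding length, the cytosolic genes had 10.1 ± 0.49 times the reads of the 15 mitochondrial genes, between 9.46 and 10.8 in single libraries and 9.96 on average without the 3 libraries whose sex-linked genes go against the label. The ratio of the medians, which the top genes of either set affect less, was 5.69 ± 0.69.

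Iars2 (isoleucine) was the highest mitochondrial enzyme after Lars2, at 21.9 ± 3.73 CPM per kilobase. It lies on chromosome 1 at 185284726 to 185329396, and Eprs begins further along at 185363044. Iars2 held 78.4, 54.8, 82.9 and 73.5 CPM in the libraries labelled female and 51.4, 57.8, 66.0 and 67.2 CPM in those labelled male. Hars2 (histidine) followed with 29.8, 16.1, 23.5 and 23.9 CPM in the libraries labelled female and 14.6, 14.8, 24.6 and 16.2 CPM in those labelled male. Pars2 (proline) was the lowest of all 37 genes, with 3.84, 3.05, 2.78 and 2.91 CPM in the libraries labelled female and 2.16, 1.81, 2.75 and 2.95 CPM in those labelled male; its thinnest library held 8 reads of it, so its values carry a large counting error. In all 3 genes the groups overlapped. The remaining mitochondrial enzymes lay between 2.62 CPM per kilobase for Ears2 (glutamate) and 11.1 for Fars2 (phenylalanine).

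Set against the enzyme for the same amino acid, the distance between the compartments differed widely. The closest pair was isoleucine, with Iars at 1.59 ± 0.12 times Iars2 per kilobase, followed by cysteine (Cars and Cars2, 2.05 ± 0.40 times) and threonine (Tars and Tars2, 2.45 ± 0.11 times). The isoleucine ratio lay between 1.38 and 1.72 and the threonine ratio between 2.28 and 2.60 in all 8 libraries, so these 2 pairs did not overlap. The widest gaps were proline (Eprs and Pars2, 35 ± 8.96 times), tryptophan (Wars and Wars2, 24.4 ± 5.10), glutamate (Eprs and Ears2, 24.4 ± 6.44), asparagine (Nars and Nars2, 19.9 ± 3.29) and alanine (Aars and Aars2, 15.1 ± 1.61). Only leucine ran the other way, with more reads on the mitochondrial gene in every library.

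Some of these values can include reads of a second gene. In the GENCODE M21 transcripts, 22.6% of the 28-base windows in the coding sequence of Iars also occur in Gm4849, 14.4% of those of Cars2 in Naxd, 7.10% of those of Vars2 in Gm20483, 5.47% of those of Kars in other genes (Gm8428 the most) and 4.05% of those of Tarsl2 in Tm2d3. Hars and Hars2 lie head to head and share 168 windows around their starts. In 27 of the 37 members, no coding window was shared at all. In the 3′ UTR, Iars2 shares 2007 windows with Rab3gap2, Aars 1299 with Exosc6 and Farsb 223 with Sgpp2. How reads that fit more than 1 gene were assigned is not given in the sources used here, so these members and the isoleucine, cysteine and alanine ratios are uncertain by an unknown amount.

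Lars2, which charges mitochondrial leucine tRNA, lies on chromosome 9 at 123366927 to 123462666. It had the highest mean CPM of all coding genes outside the mitochondrial genome and was the most variable synthetase. It held 6626, 62838, 6534 and 22635 CPM in the libraries labelled female 1 to 4, against 69265, 11097, 6143 and 44703 CPM in those labelled male 1 to 4. Both labels thus had libraries near the bottom and near the top, and the groups overlapped throughout. Its share of all assigned reads was 0.61% to 6.93%, while the other 36 synthetase genes together took 0.22% to 0.33%. Lars2 alone had 24.6 to 364 times the reads of the other 15 mitochondrial enzymes summed.

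The other synthetases did not follow it. Over the 8 libraries, the log2 level of Lars2 had a negative Pearson correlation with 34 of the 36 other members, from -0.87 for Sars2 to 0.20 for Mars2; 83.4% of all 15720 genes tested also had a negative one, and all values of a library share its total, so this is a description of shares of reads. The genes most like Lars2 among 9597 with a mean of at least 10 CPM were Gm15564 (r = 0.99), AA474408 (r = 0.99), Gm15662 (r = 0.97), the 5.8S ribosomal RNA gene n-R5-8s1 (r = 0.95) and Snord43 (r = 0.93). Apart from Gm15662, for which no annotation was used here, none of them is annotated as protein-coding. Gm15564 held 272, 1846, 280 and 1043 CPM in the libraries labelled female, against 3107, 379, 293 and 1587 CPM in those labelled male, with Lars2 at 20.9 to 34.0 times its level in every library. AA474408 held 396, 2403, 369 and 1020 CPM in the libraries labelled female, against 4331, 630, 321 and 1782 CPM in those labelled male, and Lars2 was 16 to 26.2 times as high. They lie on chromosomes 16 (Gm15564, 35966752 to 35983230) and 7 (AA474408, 110057987 to 110061325), and their order over the libraries was nearly its order.

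**Figure D2:**
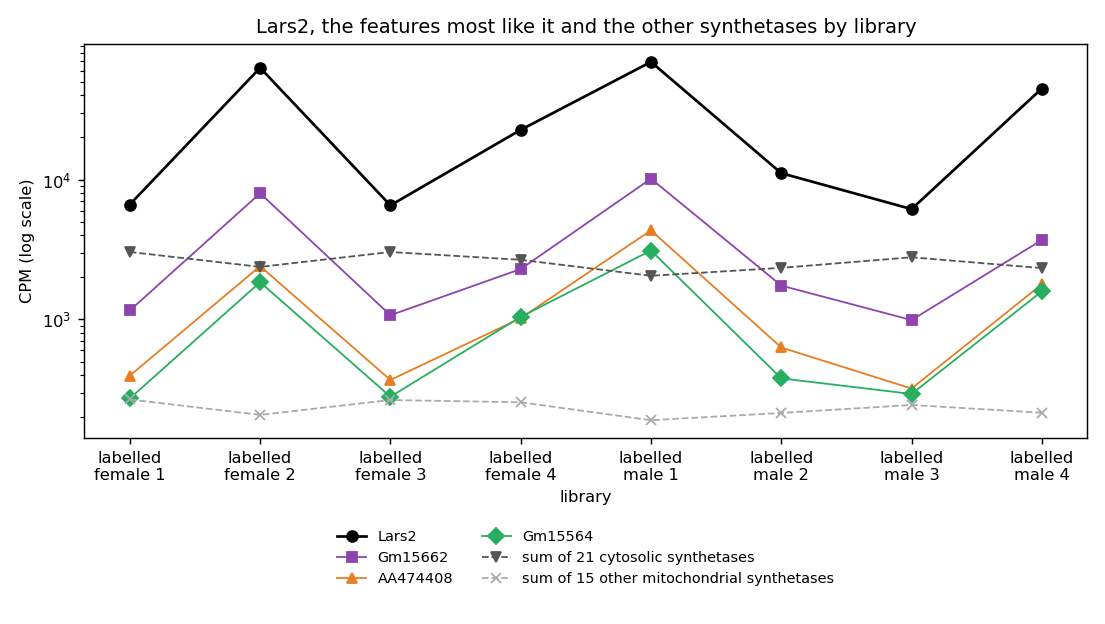
Lars2 and 3 features most like it, with the sums of the 21 cytosolic and the 15 other mitochondrial synthetases, in each of the 8 libraries, in CPM on a log axis; lines join the values of 1 gene or sum and imply no order of libraries. Lars2 moves between 6143 and 69265 CPM together with Gm15662, AA474408 and Gm15564, while the synthetase sums stay between 2051 and 3034 and between 190 and 268 CPM.

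Correlations were tested for 9 features of a list drawn up for ribosomal RNA-like and abundant non-coding genes. Exact permutation of the pairings was used, with Benjamini-Hochberg adjustment over the 9. Of these, Gm15662 had no annotation here, and Rn7sk averaged only 38.6 CPM. Gm15564 (Pearson r = 0.99, exact p = 0.00015, adjusted p = 0.00067; Spearman rho = 0.90, adjusted p = 0.021) and Gm15662 (r = 0.97, exact p = 2.5e-05, the smallest the 40320 pairings allow, adjusted p = 0.00022; rho = 1.0, adjusted p = 0.00045) followed Lars2. Without the libraries farthest from its median, female 2 and male 1, their r was 0.99 for both, and without female 3, the near copy of female 1, it was 0.99 for Gm15564 and 0.97 for Gm15662. The permutation treats the 8 libraries as independent, which female 1 and female 3 do not appear to be. Its p-values are therefore likely too small, and none was computed without female 3. The relation of Lars2 with Gm15662 was already known from earlier results of these libraries and is not independent evidence. The mitochondrial ribosomal RNAs mt-Rnr1 (r = 0.72, rho = 0.57) and mt-Rnr2 (r = 0.59, rho = 0.52) did not pass, with adjusted exact permutation p = 0.14 and 0.18 for r, and neither did Rn7sk (r = 0.72), Gm26917 (r = 0.62), Rpph1 (r = 0.49), Rmrp (r = 0.39) or Gm43846 (r = 0.20). Without female 2 and male 1, r was 0.91 for mt-Rnr1 and 0.59 for mt-Rnr2, and without female 3 it was 0.66 and 0.52. Gm42418, AY036118 and Rn18s-rs5, which are known to hold ribosomal RNA sequence, are listed at 0 in all libraries.

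Letters that Lars2 shares with Gm15564 and AA474408 lie outside its coding sequence. Its transcript of 3894 bases has 199 bases of 5′ UTR, 2706 of coding sequence and 989 of 3′ UTR. Of 2679 coding windows of 28 bases, the shortest footprint length selected, 0 occur in another gene of the GENCODE M21 transcripts. Of the 3′ UTR, 51 windows do, in AA474408 (35) and Gm15564 (25). These are also the genes whose levels were most like that of Lars2. The stretch shared with Gm15564 is 72 bases long at 98.6% identity, with 1 mismatch, and starts 373 bases after the stop codon; an alignment of 196 columns with AA474408 at 80.1% identity covers the same end. No alignment was found with n-R5-8s1, Snord43 or the mitochondrial ribosomal RNAs. Gm15662 is absent from the GENCODE M21 transcripts, so it was not compared with Lars2 by sequence. The tables give 1 value per gene and no positions of reads, so how the Lars2 reads divide between coding sequence and 3′ UTR was not tested.

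The other members moved modestly over the libraries. The libraries labelled female 1 and female 3 were the highest for 7 of the 13 cytosolic enzymes outside the complex, 3 of the 8 complex enzymes and 2 of the 15 mitochondrial enzymes, against 28.2% of all genes tested. The library labelled male 1 was the lowest for 9 of 13, 3 of 8 and 7 of 15 of them, against 46.1% of all genes. The mitochondrial enzymes were thus below or near the share of all genes in both counts. After Lars2, the widest spread belonged to Wars2 (coefficient of variation 28.4%), Hars2 (28.1%), Nars (26.4%) and Hars (24.7%). Nars covered a 1.97-fold range and Rars a 1.24-fold range, so members of 1 pathway differed in how much they moved. The library labelled male 1 also had the lowest depth, the largest share of mitochondrial ribosomal RNA (15.6% of reads) and the lowest pan-neuronal sum, and the part of these in its low synthetase values was not tested.

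**Figure D3:**
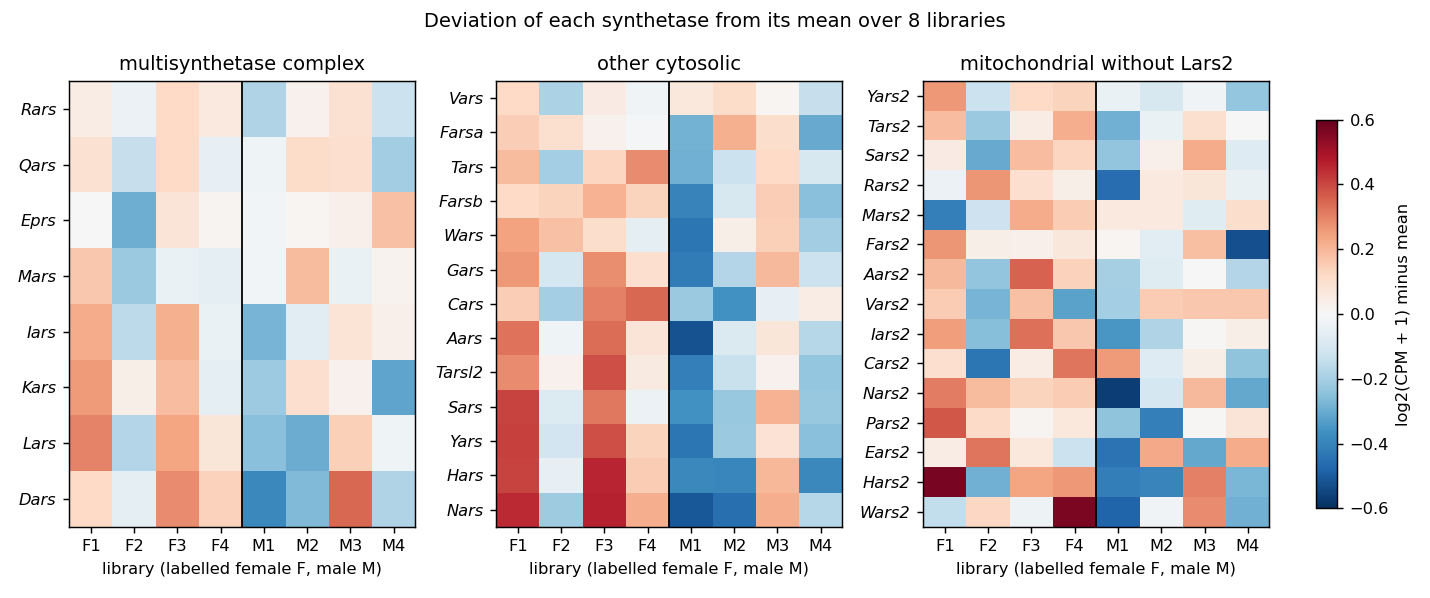
Deviation of log2(CPM + 1) from the mean of the gene over 8 libraries, for the 8 enzymes of the multisynthetase complex, the 13 other cytosolic and the 15 other mitochondrial enzymes, from least variable (top) to most variable; red is above and blue below the mean. Columns F1 and F3 are red and M1 is blue for most cytosolic enzymes outside the complex, and the complex enzymes are paler.

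Between the libraries labelled female and male, no synthetase gene passed the test. Of the 37 members, 0 were called (limma, adjusted p under 0.05 over all 15720 genes), and the same holds for all genes, with 0.0% called and a smallest adjusted p of 0.37. A fit blocked on the replicate number called 27 genes (0.172%), none of them a synthetase. At an unadjusted p under 0.05 there were 7 members, all higher in the libraries labelled female, where 11.9% of all genes tested were; 0 members were higher in those labelled male, where 1.41% of all genes were. That split depended on the scaling. Under median-ratio scaling there were 3 members higher in the libraries labelled female (Hars, Tarsl2 and Yars; 6.09% of all genes) and 3 higher in those labelled male (Eprs, Mars and Vars2; 6.79%). Under quantile normalization there were 5 higher in the libraries labelled female (Aars, Hars, Nars, Tarsl2 and Yars; 6.64%) and the same 3 higher in those labelled male (6.18%). The log2 difference was above 0 for 18 of 21 cytosolic and 13 of 15 mitochondrial members without Lars2, against 71.7% of all genes.

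Most of that direction is shared by genes at large. The median log2 difference, female minus male, was 0.23 for the cytosolic members, 0.19 for the mitochondrial members without Lars2 and 0.15 for all genes. Scaling by the median ratio moved the median of all genes to 0.00 and left 0.07 for the cytosolic members, with 14 of 21 above 0, and 0.04 for the mitochondrial members, with 10 of 15 above 0, against 50.0% of all genes. Without the 3 libraries whose sex-linked genes go against the label, the medians were 0.05 for either set and 0.01 for all genes. Above 0 were 16 of 21 and 10 of 15 members, against 52.4% of all genes. The 1 member at an unadjusted p under 0.05 was then Vars2, higher in the libraries labelled male, where 1.19% of all genes were.

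**Figure D4:**
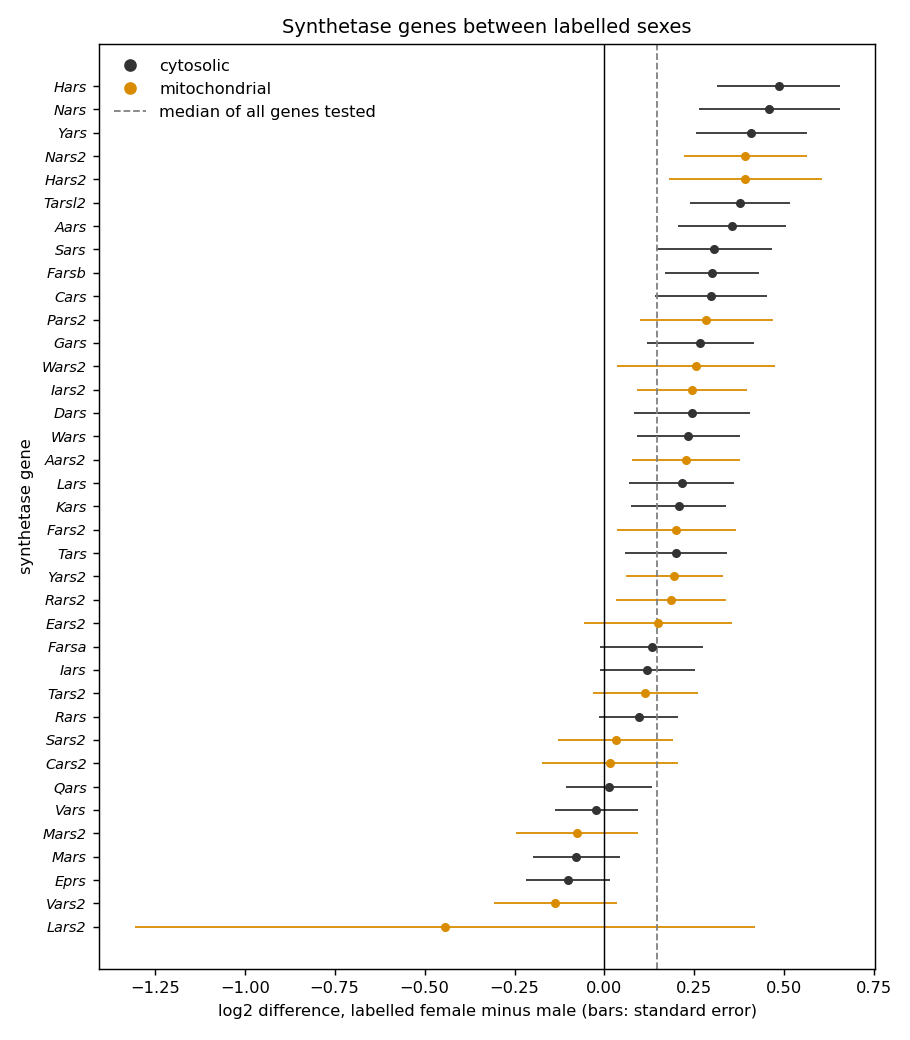
Log2 difference of each synthetase gene, libraries labelled female minus libraries labelled male, with its standard error from limma; black is cytosolic, orange mitochondrial, and the dashed line is the median of all genes tested, 0.15. Hars is highest at 0.48 and Lars2 lowest at -0.44 with the widest bar, and 0 of the 37 passed the test.

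Of the 7 members at an unadjusted p under 0.05, Hars (histidine) had the widest difference, with 144, 104, 149 and 121 CPM in the libraries labelled female and 82.5, 82.2, 124 and 82.4 CPM in those labelled male (log2 difference 0.48, SE 0.17, limma adjusted p = 0.37). Nars differed by 0.46 (SE 0.20) and Yars (tyrosine) by 0.41 (SE 0.15), Yars with 121, 83.9, 119 and 99.8 CPM in the libraries labelled female and 67.1, 77.7, 96.5 and 76.2 CPM in those labelled male. In each of these genes the library labelled male 3 reached into the range of the libraries labelled female. The differences without the 3 libraries were 0.25 for Hars, 0.14 for Nars and 0.14 for Yars. Tarsl2, on chromosome 7 at 65644898 to 65692091, held 41.4, 34.4, 44.5 and 35.2 CPM in the libraries labelled female and 25.2, 30.7, 34.4 and 28.6 CPM in those labelled male. It was the only member whose groups did not overlap, by a margin smaller than the rounding, and 3.43% of all genes did so in this direction (1.13% in the other, with 0 members); its log2 difference was 0.38 (SE 0.14, limma adjusted p = 0.37), and 0.16 without the 3 libraries.

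Aars held 310, 242, 311 and 260 CPM in the libraries labelled female and 171, 232, 260 and 219 CPM in those labelled male, a log2 difference of 0.35 (SE 0.15). The beta subunit gene Farsb held 93.6, 94.4, 99.4 and 94.5 CPM in the libraries labelled female and 64.9, 80.4, 95.2 and 72.1 CPM in those labelled male (log2 difference 0.30, SE 0.13). Its values were nearly the same in the 4 libraries labelled female and spread in those labelled male. Nars2, the single mitochondrial gene among the 7, held 15.2, 13.9, 13.4 and 13.6 CPM in the libraries labelled female and 7.84, 11.2, 14.0 and 9.58 CPM in those labelled male (log2 difference 0.39, SE 0.17, limma adjusted p = 0.37). Their differences without the 3 libraries were 0.09 for Aars, 0.20 for Farsb and 0.24 for Nars2.

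In the other direction no member reached an unadjusted p under 0.05 on the CPM scale. The nearest were Eprs (log2 difference -0.10, SE 0.12), Vars2 (-0.14, SE 0.17) and Mars (-0.08, SE 0.12), the genes that reached it under median-ratio scaling and quantile normalization. The difference of Eprs was -0.27 under median-ratio scaling and -0.21 without the 3 libraries, that of Vars2 -0.29 and -0.46, and that of Mars -0.24 and -0.20. Vars2 (mitochondrial valine) held 11.7, 8.44, 11.9 and 8.17 CPM in the libraries labelled female and 8.92, 11.7, 11.8 and 11.8 CPM in those labelled male. Mars held 67.0, 51.2, 58.3 and 57.4 CPM in the libraries labelled female and 59.2, 68.4, 58.2 and 60.8 CPM in those labelled male, with the groups overlapping. Without the 3 libraries, Gars differed by 0.03, Rars by 0.02, Iars2 by -0.000705, Hars2 by 0.11 and Pars2 by 0.20. Lars2 differed by -0.44 (SE 0.86, limma adjusted p = 0.82; exact two-sided permutation p = 0.657, where 70 arrangements allow no p below 0.0286), and the direction turned to 1.38 without the 3 libraries, 0.12 without male 1 alone and 0.17 under quantile normalization.

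Grouped by role, the 8 complex enzymes had a median log2 difference of 0.11, with 6 of 8 above 0, and the 13 other cytosolic enzymes one of 0.30, with 12 of 13 above 0; under median-ratio scaling the complex median was -0.06 with 3 of 8 above 0 and that of the others 0.14 with 11 of 13. Without the 3 libraries the complex median was -0.04 with 4 of 8 above 0 and that of the others 0.09 with 12 of 13. By fold of the catalytic domain, all 18 class II enzymes were above 0 (median 0.27) and 13 of 19 class I enzymes, Lars2 included (median 0.12), with 15 of 18 and 9 of 19 above 0 under median-ratio scaling (medians 0.12 and -0.04) and 16 of 18 and 11 of 19 without the 3 libraries (medians 0.08 and 0.02). The 6 cytosolic enzymes listed here for inherited peripheral neuropathy in humans (Aars, Gars, Hars, Mars, Wars and Yars) had a median of 0.31 with 5 of 6 above 0, and 0.08 without the 3 libraries. The 5 cytosolic genes with the promoter element had a median of 0.27, with 5 of 5 above 0, and one of 0.08 with 4 of 5 above 0 without the 3 libraries. Of all genes tested, 71.7% were above 0 on the CPM scale, 50.0% under median-ratio scaling and 52.4% without the 3 libraries. Of these lists 0 members were called, against 0.0% of all genes.

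Genes that act beside the synthetases gave no call either, in 6 further lists. Of the 3 scaffold genes, 3 were above 0; Aimp2 had the highest mean, 48.9 ± 3.29 CPM, and a log2 difference of 0.06 (SE 0.11), and Aimp1 one of 0.29 (SE 0.14). The scaffold genes divided under median-ratio scaling, with 1 of 3 above 0 (median -0.10); without the 3 libraries 3 of 3 were above 0 (median 0.04), with Aimp2 at 0.02 and Aimp1 at 0.16. All 6 genes of trans-editing proteins, which clear wrongly charged tRNAs, were above 0 (median 0.34), with Dtd1, a deacylase of D-aminoacyl-tRNA, at 0.37 (SE 0.15) and Aarsd1, an editing protein for mischarged alanine tRNA, at 0.30 (SE 0.20). Without the 3 libraries 3 of these 6 were above 0 (median 0.02), with Dtd1 at 0.37 and Aarsd1 at -0.10.

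In the selenocysteine pathway 4 of 5 genes were above 0 (median 0.09), with Sephs2, which makes selenophosphate, at 0.18 (SE 0.19) and the elongation factor Eefsec at 0.06 (SE 0.14). Under median-ratio scaling 1 of the 5 was above 0 (median -0.06), and without the 3 libraries 3 of 5 were (median 0.02), with Sephs2 at 0.27 and Eefsec at -0.01. Of 9 genes of tRNA end processing and export, 8 were above 0 (median 0.24): the tRNA ligase Rtcb held 130, 91.6, 132 and 119 CPM in the libraries labelled female and 72.7, 73.4, 112 and 89.4 CPM in those labelled male (log2 difference 0.45, SE 0.17), and the nuclear export receptor Xpo5 differed by -0.18 (SE 0.10). Without the 3 libraries the median of these 9 was 0.08 with 7 above 0, Rtcb differed by 0.21 and Xpo5 by -0.21. All 13 mitochondrial translation factors measured, of 14 listed, were above 0 (median 0.38); the median was 0.24 under median-ratio scaling, with 13 of 13 above 0, and 0.14 without the 3 libraries, with 10 of 13 above 0. Mtif3, a mitochondrial initiation factor, held 15.9, 13.5, 18.8 and 17.6 CPM in the libraries labelled female and 8.92, 10.9, 14.1 and 9.14 CPM in those labelled male (log2 difference 0.58, SE 0.17, limma adjusted p = 0.37), and the elongation factor Tsfm differed by 0.20 (SE 0.17). Mtif3 differed by 0.43 and Tsfm by -0.07 without the 3 libraries.

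Atf4 and 13 genes of the amino acid stress response were divided, with 8 of 14 above 0 (median 0.09) and a median of -0.07 under median-ratio scaling, with 6 of 14 above 0; without the 3 libraries 7 of 14 were above 0 (median -0.01). Asns, the asparagine synthetase that makes the amino acid itself, held 191, 155, 198 and 161 CPM in the libraries labelled female and 110, 117, 153 and 124 CPM in those labelled male (log2 difference 0.48, SE 0.14, limma adjusted p = 0.37). Its groups did not overlap, as for 3.43% of all genes in this direction, and it differed by 0.27 without the 3 libraries. Slc38a2, an amino acid transporter of the same list and its highest member at 570 ± 71.2 CPM, differed by -0.06 (SE 0.13), and by -0.11 without the 3 libraries.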

How the data were processed

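Ribosome footprints of mouse DRG were collected on size-exclusion columns, depleted of ribosomal RNA, selected on a gel at 28 to 34 nt and made into libraries with a small RNA kit, per the labels' protocols. Per the submitters' processing notes, the tools were Cufflinks 2.2.1, Bowtie2 2.2.9, TopHat2 2.1.1 and FastQC 0.11.5 and the builds mm10 and GRCm38.p4. What each tool did, and which annotation was counted, is not given in the sources used here. Each labelled sex has 1 table, which the authors deposited under the name TPM, but the deposited values are CPM: each column sums to 1000000, and 95.7% to 96.5% of the values above 0 are whole multiples of 1 step per library, within 0.01 of a step, where 2% would be by chance. The remaining values are fractions of a read, so no count model was fitted, and the tests planned on log2 values were kept. A value of CPM is not corrected for length; levels of different genes were compared after division by the longest coding length in GENCODE M21. A floor of 3 reads is worth 0.236 to 0.811 CPM, and floors and depths cover counting error only.

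Members were found by symbol and rows of 1 symbol summed (48431 rows, 48315 symbols, 110 of them from more than 1 row). The libraries labelled female were compared with those labelled male on the scale log2(CPM + 1) with limma 3.58.1 (R 4.3.3, intensity trend, two-sided) over the 15720 genes that averaged 1 CPM or more, with Benjamini-Hochberg adjustment at 0.05; this scale understates the change of low genes. The procedure was tested on simulated data. Same-numbered libraries of both labels deviated together (r = 0.288, 0.492, 0.531 and 0.592 across genes for numbers 1 to 4, all above 0.1). The numbers were therefore taken as pairs, which rests on the data alone, since no label explains the numbers. Number 1 goes against this pairing, because female 1 was most like male 3. Female 2, female 3 and female 4 were each most like the male library of their own number. The replicate block left the members called at 0 and gave 8 at an unadjusted p under 0.05. Correlations were tested by exact permutation; sums of members were not correlated, since no test is given over the members. Sequences were compared with blastn 2.17.0 and as shared windows of 28 bases. A further promoter window is not reported here. The rest was done in Python 3.11.15 with pandas 2.3.3, numpy 2.4.6, matplotlib 3.10.9 and scipy 1.17.1.

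The members, the gene lists and the features set beside Lars2 were chosen with earlier results of these data known. Named are the 3 highest cytosolic and mitochondrial members, the lowest member, those with the widest and narrowest spread, the 3 with the smallest p in each direction, and Lars2, each with its value in every library; of other lists, the genes with the highest mean and the smallest p; and the 5 genes most like Lars2, of which some are given by means, differences or correlations alone. Aars, Farsb and Nars2 were added after their values were seen, to complete the 7 members at an unadjusted p under 0.05. Alternatives were the pseudocount (0.25 and 4), the filter (none, and 5 CPM), 4 scalings, of which protein-coding genes without Lars2 was chosen after the data were seen, sample weights, each library left out, the 3 libraries against their label left out, and female 1 and female 3 averaged.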

Additional observations from a re-analysis of the deposited data

Results flagged for a closer look

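Within the 4 libraries of a labelled sex, 74 groups of values (37 genes in each label) were searched for a library standing apart from the other 3 by Dixon's test at 95%, which marks about 1 group in 20 by chance, and 5 were found. Hars stood apart in the library labelled male 3, at 124 CPM, with the other 3 between 82.2 and 82.5. Hars2, whose start overlaps that of Hars, stood apart in the same library, at 24.6 CPM, with the others between 14.6 and 16.2. Vars2 was low in the library labelled male 1, at 8.92 CPM, with the others between 11.7 and 11.8. Farsb was high in the library labelled female 3, at 99.4 CPM, with the others between 93.6 and 94.5, and Fars2 in the library labelled female 1, at 18.9 CPM, with the others between 15.9 and 16.3. What sets these libraries apart in these genes was not tested.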

How the results depend on the processing

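No synthetase gene was called under the main fit or any of the 20 alternatives, and among 418 alternative fits of 21 named genes, Lars2 apart, 413 kept their direction, 0 passed the threshold and the lowest adjusted p was 0.0623, under sample weights in limma. The 5 that turned were small values: Rars was -0.0672 under median-ratio scaling, -0.0663 under quantile normalization, -0.00678 with protein-coding genes rescaled and -0.0256 with protein-coding genes without Lars2 rescaled, and Iars2 was -0.000705 without female 1, female 3 and male 1. Of the genes named from other lists, Aarsd1, Eefsec and Tsfm are not among these 21. Their differences turned below 0 without the 3 libraries. The count of members at an unadjusted p under 0.05, 7, depended on the libraries: it was 0 to 12 when 1 library was left out (0 without female 3, 1 without either female 1 or male 1, 2 without male 4, 4 without female 4, 12 without either female 2 or male 3), 1 without female 1, female 3 and male 1, 1 with female 1 and female 3 averaged, and 17 with sample weights; it was 6 under median-ratio scaling and 8 under quantile normalization, 3 of them higher in the libraries labelled male under either; the cause was not tested, beyond the smaller number of libraries. With the replicate block it was 8, and the block changed no call. The Lars2 difference of -0.44 ran from -1.11 (without female 2) to 0.12 (without male 1) with 1 library left out, and was 0.17 under quantile normalization, 1.38 without the 3 libraries and -1.42 with sample weights (limma adjusted p = 0.19). The median differences of both sets stayed above 0 under all alternatives. The cytosolic over mitochondrial ratio was 11.1 without division by length, 8.61 without Gars and Kars, and 0.28 with Lars2 counted among the mitochondrial genes. Count models were planned and not run, because part of the deposited values are fractions of reads. Depth limits the lowest members most: Pars2, Ears2 and Wars2 rested on 8, 10 and 11 reads in their thinnest library.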
